A study of Mus musculus with 16 samples.

Results

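The 7 genes described here are adipokines, the protein hormones that fat releases, together with 1 adipokine receptor. They are Adipoq (adiponectin), Lep (leptin), Retn (resistin), Nampt (nicotinamide phosphoribosyltransferase, also called visfatin), Rarres2 (chemerin), Cmklr1 (a chemerin receptor) and Apln (apelin). They were chosen by name from a table of 14023 genes, and all 7 passed the filter that kept 13669 genes for testing. RNA was measured in epididymal white fat (eWAT) and inguinal white fat (iWAT) of mice homozygous for PPARg-K107R or wild type (WT). In K107R a lysine of PPARg that takes up the SUMO modifier is replaced by arginine. Mice of all groups ate chow for their first 10 weeks and then a diet with 60% of calories from fat for 19 weeks. Gavage over 1 week then delivered either rosiglitazone (10 mg/kg), a drug that activates PPARg, or its vehicle of 1% methylcellulose alone. This gives 4 groups per depot, namely K107R rosiglitazone, WT rosiglitazone, K107R vehicle and WT vehicle, with 2 libraries each and 16 in all. The labels do not give strain, sex or age beyond these weeks, do not name the tissue in which the mutation is present, and give no number of mice behind a group. The p-values therefore weigh effects against differences between libraries, and these may be technical.

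Adiponectin circulates in high amounts, is made by fat cells, and is bound by AdipoR1, AdipoR2 and T-cadherin in its target tissues. Its gene is a textbook PPARg target. Leptin signals the size of the fat stores to the brain, and its plasma level follows fat mass. Resistin is a fat cell hormone in mice, whereas in humans it comes mainly from macrophages. Nampt makes a precursor of NAD inside cells and is also found outside them. Chemerin attracts cells that carry its receptor Cmklr1, such as macrophages, and apelin acts through the receptor Aplnr on vessels and the heart.

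Values are FPKM, fragments scaled to transcript length and library size, as the authors deposited them, so levels can be set side by side between genes. No counts are given, so sequencing depth is unknown. The FPKM of a library added up to 411746 to 596519. The median gene was at 5.36 to 8.83 FPKM in libraries with replicate number 2, against 8.95 to 9.61 FPKM in libraries with number 1. Fat cell markers checked the tissue label: Plin1, the coat protein of fat droplets, lay between 446.1 and 1663 FPKM. The summed level of 10 fat cell markers was between 4716 and 14770 FPKM in every library, with Fabp4 and Lpl left out because whole groups are listed at 0. Markers of the epididymis, the organ next to eWAT, summed to 2879 and 2776 FPKM in the K107R vehicle eWAT libraries and to at most 4.486 FPKM in the other 14 libraries. Results that rest on these 2 libraries are therefore given beside the WT values, which do not use them.

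By level over the 16 libraries, the members span from among the most abundant transcripts to near the lower limit of testing. Adipoq averaged 2005 FPKM and ranked 25 of the 13669 genes tested. Lep ranked 96 (743 FPKM), Rarres2 178, Retn 242, Cmklr1 2178 and Nampt 3461. Apln, at a mean of 3.327 FPKM, ranked 10086, so the added 1 FPKM of the log scale makes its fold changes smaller than they are. The genes lie apart in the genome, except that Lep and Rarres2 share a chromosome (GRCm38 coordinates): Adipoq at chr16:23146536-23158028, Lep at chr6:29060220-29073877, Retn at chr8:3655770-3660110, Nampt at chr12:32819545-32853349, Rarres2 at chr6:48569696-48572789, Cmklr1 at chr5:113612354-113650426 and Apln at chrX:48025146-48034853. Rarres2 overlaps Lrrc61 on the opposite strand, Cmklr1 overlaps the antisense gene Gm15736, and Nampt overlaps the non-coding gene Gdap10 on its own strand. The strand setting of the counting is not given in the sources used here, so reads of these pairs may be shared.

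The start regions of 4 members are shown because Adipoq moved opposite to Cmklr1 and Apln, and because Lep holds a rare motif. Each runs from 250 bases before to 50 bases after the RefSeq start (GRCm38.p6), in the direction of the gene. Such a window was found for 6 of the 7 members. The Cmklr1 and Nampt windows lie inside the gene spans given above, so their starts are not the outermost ones of these genes. Capitals mark matches, on either strand, to AGGTCA (the half-site of PPARg and other nuclear receptors), its direct repeat with 1 base between (DR1), TTGCGCAA (a palindrome recognised by C/EBP proteins), TATAAA (the TATA box), CCAAT (the site of NF-Y) and also CACGTG (an E-box).
Adipoq, chr16:23146286-23146585, + strand: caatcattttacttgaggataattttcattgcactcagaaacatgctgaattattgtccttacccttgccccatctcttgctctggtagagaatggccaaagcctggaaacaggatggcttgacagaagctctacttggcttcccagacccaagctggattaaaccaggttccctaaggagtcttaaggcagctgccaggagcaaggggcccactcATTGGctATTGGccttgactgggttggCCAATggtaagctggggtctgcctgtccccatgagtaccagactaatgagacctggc
Lep, chr6:29059971-29060270, + strand: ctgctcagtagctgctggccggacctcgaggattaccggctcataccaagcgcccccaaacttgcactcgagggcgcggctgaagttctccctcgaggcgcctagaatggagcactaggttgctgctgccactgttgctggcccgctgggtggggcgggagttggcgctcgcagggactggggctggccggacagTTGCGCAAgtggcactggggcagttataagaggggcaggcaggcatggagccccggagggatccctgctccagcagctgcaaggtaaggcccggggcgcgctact
Cmklr1, chr5:113643554-113643853, - strand: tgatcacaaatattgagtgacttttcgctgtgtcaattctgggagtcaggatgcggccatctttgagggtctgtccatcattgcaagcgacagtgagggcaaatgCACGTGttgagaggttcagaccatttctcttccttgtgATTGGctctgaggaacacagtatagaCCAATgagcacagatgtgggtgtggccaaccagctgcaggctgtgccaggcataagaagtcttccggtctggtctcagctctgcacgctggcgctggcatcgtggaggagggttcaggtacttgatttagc
Apln, chrX:48034804-48035103, - strand: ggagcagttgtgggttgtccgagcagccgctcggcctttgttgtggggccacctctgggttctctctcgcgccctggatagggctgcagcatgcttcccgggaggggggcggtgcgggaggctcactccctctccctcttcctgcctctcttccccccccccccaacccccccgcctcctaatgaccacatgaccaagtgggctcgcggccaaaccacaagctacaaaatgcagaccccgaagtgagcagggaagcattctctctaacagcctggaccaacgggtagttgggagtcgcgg
The Lep window holds TTGCGCAA at -55, counted from the start, which 0.183% of 32851 such mouse promoters hold. The Adipoq window holds CCAAT at -34 and -27 on the opposite strand and at -7 on its own. The Cmklr1 window holds CCAAT at -107 on the opposite strand and at -81 on its own, and CACGTG at -145, while 37.4% of promoters hold CCAAT and 7.15% hold CACGTG. Of these 6 motifs the Apln and Retn windows hold none. Outside the windows printed, Nampt holds AGGTCA at -151, as 16.3% of promoters do. The direct repeat, in 0.0396% of promoters, is in none of the 6 windows. A match is a run of letters and no measure of binding.

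**Figure D1:**
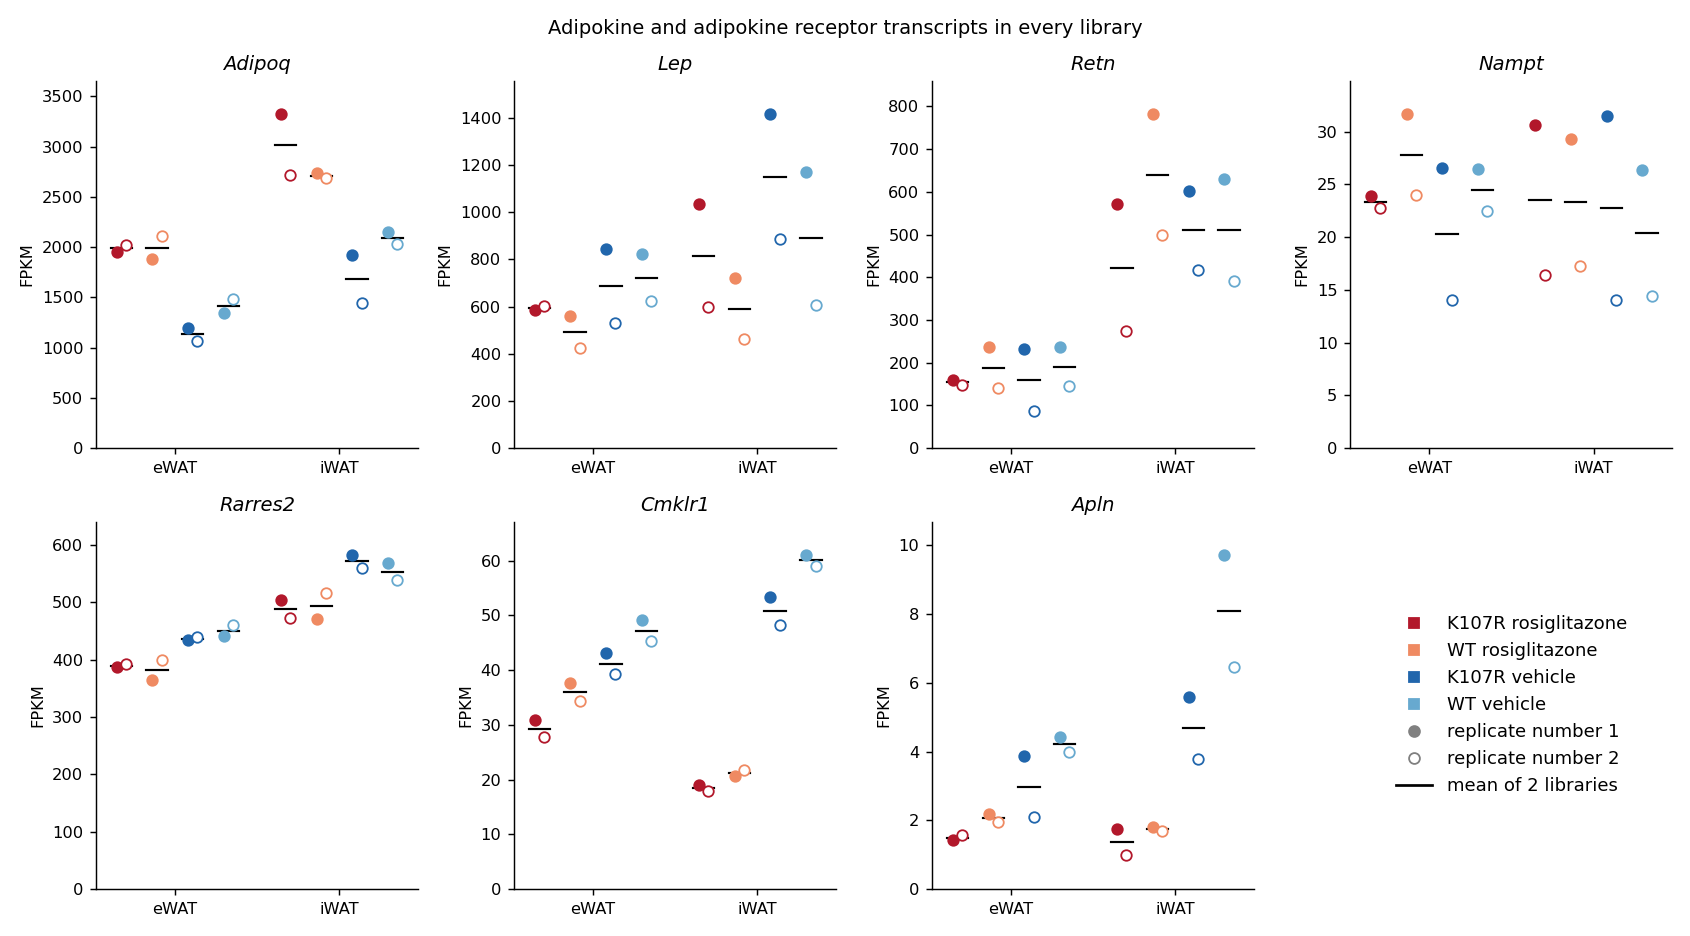
FPKM of each member in every library (y axes, linear, from 0) for 4 eWAT groups and 4 iWAT groups (x axis). Filled points are libraries with replicate number 1, open points those with number 2, and bars the mean of the pair; within a depot Cmklr1 and Apln sit lowest in the rosiglitazone groups, and the points of Retn and Nampt are split by number in every group.

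Adiponectin rose with rosiglitazone in both depots. In eWAT, Adipoq was at 1952 and 2022 FPKM in K107R rosiglitazone libraries (numbers 1 and 2) and at 1885 and 2107 FPKM in WT rosiglitazone libraries, against 1199 and 1068 FPKM in K107R vehicle and 1347 and 1484 FPKM in WT vehicle libraries. Its iWAT values were 3320 and 2720 FPKM in K107R rosiglitazone and 2734 and 2691 FPKM in WT rosiglitazone libraries, against 1923 and 1442 FPKM in K107R vehicle and 2152 and 2027 FPKM in WT vehicle libraries. Every rosiglitazone library thus lay above every vehicle library of its depot, as 3.98% of all genes tested did in eWAT and 5.68% in iWAT. The change over both genotypes was 0.65 ± 0.12 on the log2 scale in eWAT (SE; adjusted p = 0.0072) and 0.61 ± 0.12 in iWAT (adjusted p = 0.0127), by limma's moderated test with Benjamini-Hochberg adjustment over all genes tested. In bulk tissue, more cells of a type and more RNA per cell cannot be told apart.

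Within a genotype, Adipoq passed the test in K107R mice, with a fold of means of 1.75 in eWAT (log2 0.81 ± 0.17, adjusted p = 0.0166) and of 1.8 in iWAT (log2 0.85 ± 0.17, adjusted p = 0.0172). In WT mice the folds of means were 1.41 in eWAT (log2 0.50 ± 0.17, adjusted p = 0.522) and 1.30 in iWAT (log2 0.38 ± 0.17, adjusted p = 0.549), which missed the threshold. The K107R calls rest on few libraries: without any single library of the comparison the adjusted p was 0.0873 to 0.223 in eWAT, and in iWAT it was 0.152 without K107R rosiglitazone number 1 and 0.122 without K107R vehicle number 2. The difference between the genotypes' responses did not pass either, at log2 0.32 ± 0.23 in eWAT (95% interval -0.20 to 0.84, adjusted p = 0.995) and 0.47 ± 0.23 in iWAT (interval -0.05 to 1.00, adjusted p = 1). When each library was divided by its median ratio to the other libraries, the Adipoq change over both genotypes was 0.54 in eWAT (adjusted p = 0.227) and 0.59 in iWAT (adjusted p = 0.129). Rosiglitazone and vehicle libraries then overlapped in iWAT, but not in eWAT. With that scaling and the replicate number as a block the adjusted p was 0.0017 in eWAT and 0.00081 in iWAT. This combination of rescaling and block was added after seeing the data. The calls over both genotypes were lost without K107R vehicle number 2 in eWAT (adjusted p = 0.0603) and without K107R rosiglitazone number 1 (0.0573) or WT vehicle number 2 (0.056) in iWAT. With the spread estimated from 1 depot alone the adjusted p over both genotypes was 0.0243 in eWAT and 0.169 in iWAT.

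The fat cell markers moved with Adipoq. Their sum was 6573 to 9432 FPKM in rosiglitazone eWAT libraries against 4716 to 6347 FPKM in vehicle ones, and 10910 to 14770 FPKM against 6576 to 8685 FPKM in iWAT. Of the 11 markers in eWAT and 10 in iWAT with no group listed at 0 in the comparison, 2 rose in each depot and 0 fell: Cidec, a fat droplet protein (log2 0.63 in eWAT and 0.97 in iWAT), and Pnpla2, the first lipase of fat breakdown (0.79 and 1.04). Over both genotypes 5.18% of all genes tested passed with rosiglitazone in eWAT and 5.36% in iWAT (11.7% and 16.2% with the block). These shares are the background for list counts with rosiglitazone, here and below. The markers' median change was log2 0.43 in eWAT and 0.419 in iWAT, where the median over all genes tested was 0.101 and 0.0185. The ratio of Adipoq to their sum is given under Other observations. The markers' part in the Adipoq change was not tested.

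The machinery around adiponectin was described from lists. Of 10 receptors and proximal signal genes of the members, 0 passed with rosiglitazone in eWAT over both genotypes at an adjusted p under 0.05, by limma, while 3 had an unadjusted p under 0.05 and 2 rose with the replicate block, Adipor2 and Cdh13. In iWAT 1 rose: Adipor2, an adiponectin receptor, at 265.6 and 198.9 FPKM in K107R rosiglitazone and 224.2 and 186.9 FPKM in WT rosiglitazone libraries, against 160.3 and 105.1 FPKM in K107R vehicle and 145.6 and 106.5 FPKM in WT vehicle libraries (log2 0.77 ± 0.18, adjusted p = 0.038). In eWAT Adipor2 had a log2 change of 0.64 ± 0.18 (adjusted p = 0.087, with the block 0.00223). Cdh13, the T-cadherin that binds adiponectin, had 0.38 ± 0.11 in eWAT (adjusted p = 0.0777, with the block 0.00552). Of 6 genes that fold and assemble adiponectin in the secretory pathway, 0 passed with rosiglitazone in either depot, with or without the block. At an unadjusted p under 0.05 there were 0 in eWAT and 1 in iWAT (Gstk1, log2 0.25).

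**Figure D2:**
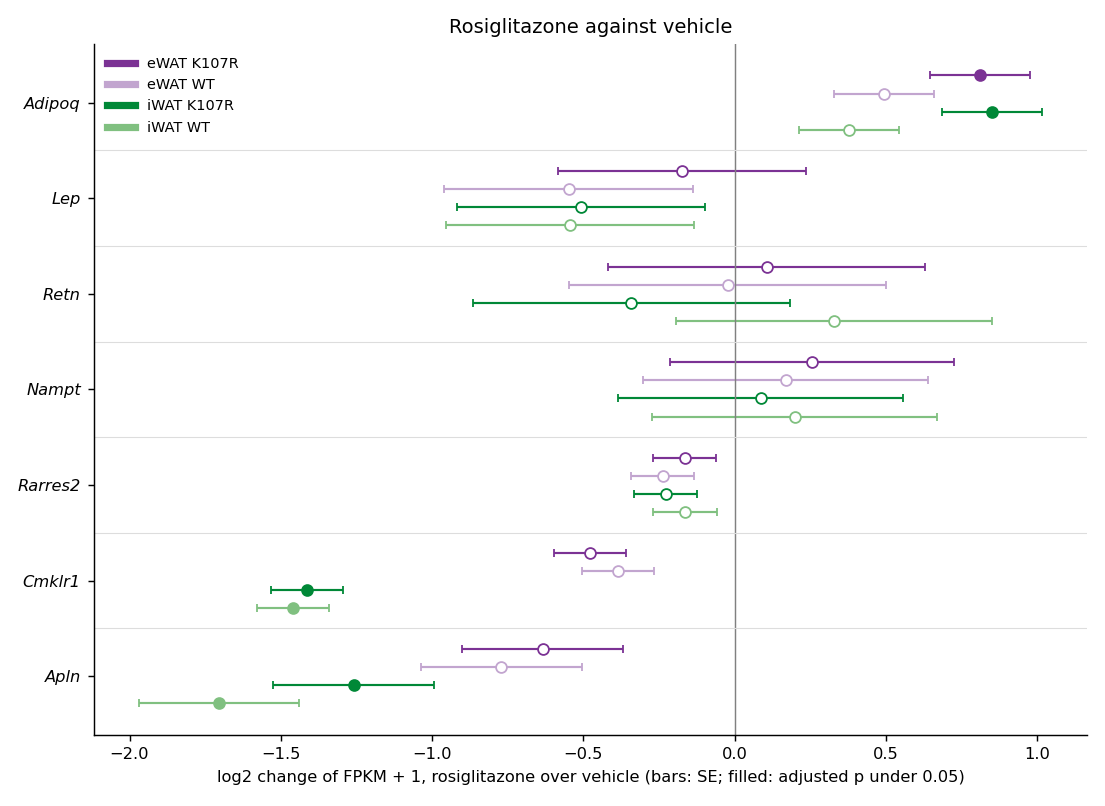
Log2 change of FPKM + 1, rosiglitazone over vehicle (x axis), for each member (rows) in 4 comparisons, with bars of 1 SE and filled points past the adjusted p of 0.05. Adipoq lies at 0.38 to 0.85, Cmklr1 at -0.48 and -0.38 in eWAT and -1.41 and -1.46 in iWAT, and the bars of Lep, Retn and Nampt are the widest.

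Cmklr1 fell with rosiglitazone in both depots, and by less in eWAT than in iWAT. In eWAT it was at 30.82 and 27.72 FPKM in K107R rosiglitazone and 37.60 and 34.32 FPKM in WT rosiglitazone libraries, against 43.07 and 39.27 FPKM in K107R vehicle and 49.20 and 45.25 FPKM in WT vehicle libraries. The rosiglitazone libraries lay below the vehicle libraries without overlap, as 2.44% of all genes tested did, but the gap was small. Over both genotypes the eWAT change was log2 -0.43 ± 0.08 (adjusted p = 0.0124). This call was lost without any of 5 of the 8 libraries: K107R rosiglitazone number 2, WT rosiglitazone number 2, either K107R vehicle library or WT vehicle number 1 (adjusted p 0.0521 to 0.0811). After rescaling it was -0.54 (adjusted p = 0.197), and with the spread estimated from eWAT alone the adjusted p was 0.079. Within K107R eWAT the change was -0.48 ± 0.12 (adjusted p = 0.0504, with the block 0.0048) and within WT eWAT -0.38 ± 0.12 (adjusted p = 0.421, with the block 0.0497).

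In iWAT Cmklr1 was at 19.05 and 17.92 FPKM in K107R rosiglitazone and 20.69 and 21.66 FPKM in WT rosiglitazone libraries, against 53.47 and 48.29 FPKM in K107R vehicle and 61.04 and 59.08 FPKM in WT vehicle libraries. All 4 rosiglitazone libraries lay far below all 4 vehicle libraries, where 2.6% of all genes tested had no overlap in this direction. The change was log2 -1.41 ± 0.12 in K107R (adjusted p = 0.000172), a fold of means of 0.363, and -1.46 ± 0.12 in WT (adjusted p = 0.000498), a fold of 0.353. Both calls held without each single library. With the spread estimated from iWAT alone the K107R call held (adjusted p = 0.0447) and the WT call was lost (0.193).

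The depots differed in this response, with eWAT minus iWAT at log2 1.005 ± 0.12 (adjusted p = 0.000723), where 2.21% of all genes tested were called (3.83% with the block). After rescaling by median ratios the difference was 0.92 (adjusted p = 0.197), and with rescaling and the block the adjusted p was 0.0111. The depot order of Cmklr1 turned with treatment: with rosiglitazone the eWAT means were above the iWAT means (29.27 against 18.48 FPKM in K107R, 35.96 against 21.17 FPKM in WT), and with vehicle they were below them (41.17 against 50.88 FPKM in K107R, 47.23 against 60.06 FPKM in WT). By means the 8 groups ran from WT vehicle iWAT at the top to K107R rosiglitazone iWAT at the bottom. In that order 6 of the 7 neighbouring pairs did not overlap, and no share of all genes is given for this. After rescaling, K107R and WT overlapped in vehicle eWAT, vehicle iWAT and rosiglitazone iWAT, and stayed apart in rosiglitazone eWAT.

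Macrophages carry Cmklr1, and none of their markers fell past the test. Of 8 macrophage markers, 2 rose and 0 fell with rosiglitazone in eWAT over both genotypes, namely Mertk, a receptor for dying cells (log2 0.78, adjusted p = 0.0218), and the lectin Clec10a (0.81, adjusted p = 0.000452). In iWAT 0 of 8 passed at an adjusted p under 0.05 by limma. There 2 had an unadjusted p under 0.05 and rose with the replicate block, again Mertk (log2 0.46) and Clec10a (0.34). The markers summed to 1080 to 1495 FPKM in rosiglitazone eWAT libraries and 831.2 to 1258 FPKM in vehicle ones, and to 281.6 to 413.9 FPKM against 257.9 to 411.4 FPKM in iWAT. Markers of fat progenitors and fibroblasts summed to 1929 to 2899 FPKM in rosiglitazone eWAT and 2195 to 2831 FPKM in vehicle eWAT libraries, which overlap. In iWAT they summed to 1272 to 1471 FPKM with rosiglitazone, below the 1915 to 2432 FPKM with vehicle. Of these 8 markers 1 fell in eWAT, Pi16 (log2 -0.55, adjusted p = 0.0222), and 1 in iWAT, Dpt (-0.74, adjusted p = 0.0139), where 5 fell with the block. The ratio of Cmklr1 to the macrophage marker sum is given under Other observations. The part of these cells in the Cmklr1 change was not tested.

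Apelin moved in the direction of Cmklr1, at a far lower level. In eWAT Apln was at 1.426 and 1.566 FPKM in K107R rosiglitazone and 2.167 and 1.935 FPKM in WT rosiglitazone libraries, against 3.858 and 2.089 FPKM in K107R vehicle and 4.418 and 4.000 FPKM in WT vehicle libraries. The lower K107R vehicle value lay within the range of the rosiglitazone libraries. The eWAT change over both genotypes was log2 -0.70 ± 0.19 (adjusted p = 0.0687, with the block 0.00513, and with rescaling 0.00031).

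The iWAT libraries had 1.748 and 0.9987 FPKM of Apln in K107R rosiglitazone and 1.795 and 1.694 FPKM in WT rosiglitazone, against 5.588 and 3.774 FPKM in K107R vehicle and 9.720 and 6.453 FPKM in WT vehicle. Every rosiglitazone value was below every vehicle value by a wide gap, where 2.6% of all genes tested had no overlap in this direction. Apln fell in iWAT over both genotypes (log2 -1.48 ± 0.19, adjusted p = 0.00118), and that call held without each single library. It also fell in K107R (-1.26 ± 0.27, adjusted p = 0.0257) and in WT (-1.70 ± 0.27, adjusted p = 0.012). Without 1 library the K107R call was lost in 3 cases, all but K107R vehicle number 2 (adjusted p 0.0535 to 0.2), and the WT call in 3 cases, all but WT vehicle number 2 (0.0918 to 0.112). With the spread estimated from iWAT alone the adjusted p was 0.0511 over both genotypes, 0.229 in K107R and 0.296 in WT. The eWAT minus iWAT difference of the response was 0.78 ± 0.27 (adjusted p = 0.394, with the block 0.0456, and with rescaling 0.00719).

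The apelin receptor and endothelial genes were set beside it. Aplnr lay at 9.33 and 2.79 FPKM in K107R rosiglitazone and 10.93 and 3.12 FPKM in WT rosiglitazone iWAT libraries, against 21.37 and 6.32 FPKM in K107R vehicle and 31.07 and 12.74 FPKM in WT vehicle ones. Its change was log2 -1.31 ± 0.54 (adjusted p = 0.277, with the block 0.00466), and within each replicate number both rosiglitazone libraries were below both vehicle libraries. Of 8 endothelial markers 1 fell in each depot over both genotypes, Tie1, a receptor kinase of vessels (log2 -0.50, adjusted p = 0.0336 in eWAT, and -0.65, adjusted p = 0.00884 in iWAT), and 0 rose. With the block 3 fell and 1 rose in eWAT, and 5 fell in iWAT. The markers summed to 240.8 to 264.7 FPKM in rosiglitazone eWAT libraries and 254.3 to 339.8 FPKM in vehicle ones, and to 359.6 to 442.1 FPKM against 394.8 to 658.5 FPKM in iWAT. Their median change was log2 -0.267 in eWAT and -0.412 in iWAT. The ratio of Apln to their sum is given under Other observations, and their part in the Apln change was not tested.

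**Figure D3:**
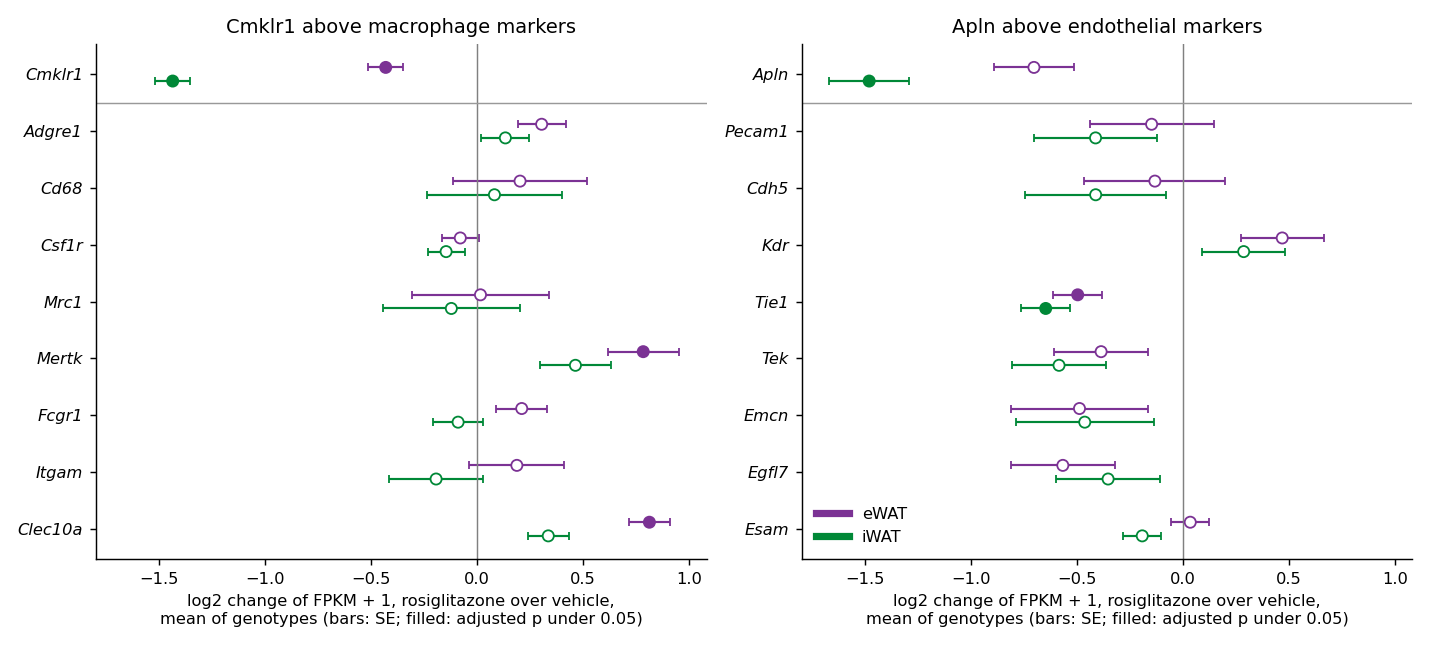
Log2 change of FPKM + 1 with rosiglitazone over both genotypes (x axis, bars 1 SE, filled points past the adjusted p of 0.05) for Cmklr1 above 8 macrophage markers and for Apln above 8 endothelial markers. Cmklr1 lies at -0.43 in eWAT and -1.44 in iWAT and Apln at -0.70 and -1.48, in iWAT left of each marker of their panel.

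Resistin, Nampt and chemerin did not pass the test with rosiglitazone in any single genotype, with or without the block or rescaling, and leptin passed there with rescaling and the block together. Lep was at 583.9 and 601.9 FPKM in K107R rosiglitazone and 561.6 and 425.2 FPKM in WT rosiglitazone eWAT, against 845.4 and 529.9 FPKM in K107R vehicle and 821.8 and 622.6 FPKM in WT vehicle eWAT. The iWAT libraries had 1036 and 597.9 FPKM in K107R rosiglitazone and 719.8 and 463.6 FPKM in WT rosiglitazone libraries, against 1415 and 886.1 FPKM in K107R vehicle and 1171 and 607.4 FPKM in WT vehicle libraries. Groups overlap in 3 of the 4 comparisons, and number 1 exceeds number 2 in 7 of the 8 groups. Within a replicate number, every rosiglitazone library of iWAT lay below the vehicle library of its genotype. The iWAT change over both genotypes was log2 -0.53 ± 0.29 (95% interval -1.18 to 0.12, adjusted p = 0.508), with the block the adjusted p was 0.0279, and with rescaling it was 0.0251 at log2 -0.55. In eWAT it was -0.36 ± 0.29 (interval -1.01 to 0.29, adjusted p = 0.968), and -0.48 with rescaling (adjusted p = 0.0582, with the block too 0.00347). With rescaling and the block Lep fell in all 4 single comparisons, by log2 0.40 in K107R eWAT (adjusted p = 0.0492), 0.56 in WT eWAT (0.0334), 0.53 in K107R iWAT (0.0125) and 0.57 in WT iWAT (0.0134). That combination was added after seeing the data, and the share of all genes it calls is not given here.

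Chemerin had small and even changes. Rarres2 lay at 387.1 and 392.0 FPKM in K107R rosiglitazone and 364.7 and 399.3 FPKM in WT rosiglitazone eWAT, against 434.6 and 438.8 FPKM in K107R vehicle and 440.6 and 460.2 FPKM in WT vehicle eWAT. In iWAT the values were 503.6 and 472.5 FPKM in K107R rosiglitazone and 471.8 and 516.9 FPKM in WT rosiglitazone, against 582.5 and 560.6 FPKM in K107R vehicle and 568.3 and 539.0 FPKM in WT vehicle libraries. All rosiglitazone libraries were below all vehicle libraries of their depot, as 2.44% of all genes tested were in eWAT and 2.6% in iWAT. The means were lower by 10.7% to 15.2% in the 4 comparisons. After rescaling by median ratios the libraries overlapped in both depots. By the test over all genes, none of the rosiglitazone changes passed. The eWAT change over both genotypes had an adjusted p of 0.245 (with the block 0.0641), and the iWAT one of 0.221 (with the block 0.0553). Over both genotypes the log2 change in iWAT was -0.20 for this ligand, beside -1.44 for its receptor Cmklr1.

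Resistin and Nampt were split by the replicate number. Retn was at 160.5 and 148.1 FPKM in K107R rosiglitazone and 236.9 and 140.7 FPKM in WT rosiglitazone eWAT, against 232.5 and 88.11 FPKM in K107R vehicle and 235.8 and 146.0 FPKM in WT vehicle eWAT. Its iWAT values were 570.3 and 274.5 FPKM in K107R rosiglitazone and 781.0 and 499.2 FPKM in WT rosiglitazone, against 601.9 and 417.9 FPKM in K107R vehicle and 630.3 and 392.4 FPKM in WT vehicle libraries. Nampt lay between 14.06 and 31.63 FPKM in eWAT and between 14.01 and 31.50 FPKM in iWAT. For both genes number 1 was above number 2 in 8 of 8 groups, by up to log2 1.39 for Retn and 1.11 for Nampt. In the fit without the block, which counts this split as spread, the 95% intervals of the rosiglitazone change over both genotypes were wide. They were -0.78 to 0.87 in eWAT and -0.83 to 0.82 in iWAT for Retn, and -0.53 to 0.95 and -0.60 to 0.88 for Nampt. Around Nampt, of 10 enzymes that make or use NAD, 0 passed with rosiglitazone in eWAT by limma (1 at an unadjusted p under 0.05, Bst1, which rose with the block) and 1 rose in iWAT, Nmnat1, which makes NAD from the product of Nampt (log2 0.83 ± 0.15, adjusted p = 0.0109).

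In counts, 1 of the 7 members passed with rosiglitazone in K107R eWAT, where 4.89% of all genes tested did, and 0 of 7 in WT eWAT, where 0.446% did. With the replicate block it was 2 of 7 in K107R eWAT (10.9% of genes) and 1 of 7 in WT eWAT (2.47%). In WT eWAT the same test at an unadjusted p under 0.05 takes 4 members, Adipoq, Cmklr1, Apln and Rarres2. The share of all genes at that unadjusted threshold is not given here, so 0.446% is no background for this count. In iWAT 3 of 7 passed in K107R (background 4.21%) and 2 of 7 in WT (1.68%), and the same counts held with the block (12.4% and 6.98%). Over both genotypes 2 of 7 passed in eWAT (5.18%) and 3 of 7 in iWAT (5.36%), against 3 and 4 with the block (11.7% and 16.2%).

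Between the genotypes, 0 of the 7 members passed in each of the 4 comparisons of K107R with WT, with or without the replicate block. The background was 0.907% of genes in rosiglitazone eWAT, 3.35% in vehicle eWAT, 4.13% in rosiglitazone iWAT and 0.578% in vehicle iWAT. With the block it was 3.47%, 8.3%, 9.36% and 2.12% in the same order. At an unadjusted p under 0.05, 1 member passes in rosiglitazone eWAT (Cmklr1) and 1 in vehicle iWAT (Apln). No share of all genes is given here at that threshold, or for rescaling with the block. With rescaling and the block together 1 passed in rosiglitazone iWAT (Lep, higher in K107R, log2 0.53, adjusted p = 0.0163) and 1 in vehicle iWAT (Apln, lower in K107R, -0.61, adjusted p = 0.0159). That combination was added after seeing the data. The interaction of genotype and rosiglitazone also called 0 of 7 in eWAT (2.53% of genes) and in iWAT (0.966%), also with the block (4.2% and 2.53%) and at an unadjusted p under 0.05.

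The intervals of the fit without the replicate block show what that fit could miss. They count the split by replicate number as spread, and intervals with the block are not given here. For Rarres2 the K107R minus WT difference lay within -0.28 to 0.28 on the log2 scale in all 4 comparisons. For Adipoq it was -0.00 in rosiglitazone eWAT (interval -0.37 to 0.36) and -0.32 in vehicle eWAT (-0.69 to 0.05). In iWAT it was 0.15 with rosiglitazone (-0.22 to 0.52) and -0.33 with vehicle (-0.70 to 0.04). Both vehicle comparisons had every K107R library below every WT library, as 18.2% of all genes tested did in eWAT and 10.4% in iWAT. The values were 1199 and 1068 against 1347 and 1484 FPKM in eWAT, and 1923 and 1442 against 2152 and 2027 FPKM in iWAT. After rescaling by median ratios the Adipoq libraries overlapped in both depots. The K107R vehicle eWAT libraries are those that hold epididymis transcripts. The intervals of the 4 comparisons lay within -1.01 to 1.36 for Lep, -1.37 to 1.16 for Nampt and -1.82 to 1.18 for Retn.

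Cmklr1 was lower in K107R than in WT in all 4 comparisons, with no overlap of the libraries, and missed the threshold in each. The log2 difference was -0.29 ± 0.12 in rosiglitazone eWAT (adjusted p = 0.682), -0.19 ± 0.12 in vehicle eWAT (0.866), -0.19 ± 0.12 in rosiglitazone iWAT (0.909) and -0.24 ± 0.12 in vehicle iWAT (1). Of all genes tested 16.4%, 18.2%, 14.2% and 10.4% had K107R libraries below both WT libraries in these 4 comparisons, in the same order. After rescaling, the libraries overlapped in 3 of the 4, all but rosiglitazone eWAT. For Apln the difference was -0.67 ± 0.27 in vehicle iWAT (adjusted p = 0.807), where K107R libraries had 5.588 and 3.774 FPKM against 9.720 and 6.453 FPKM in WT.

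**Figure D4:**
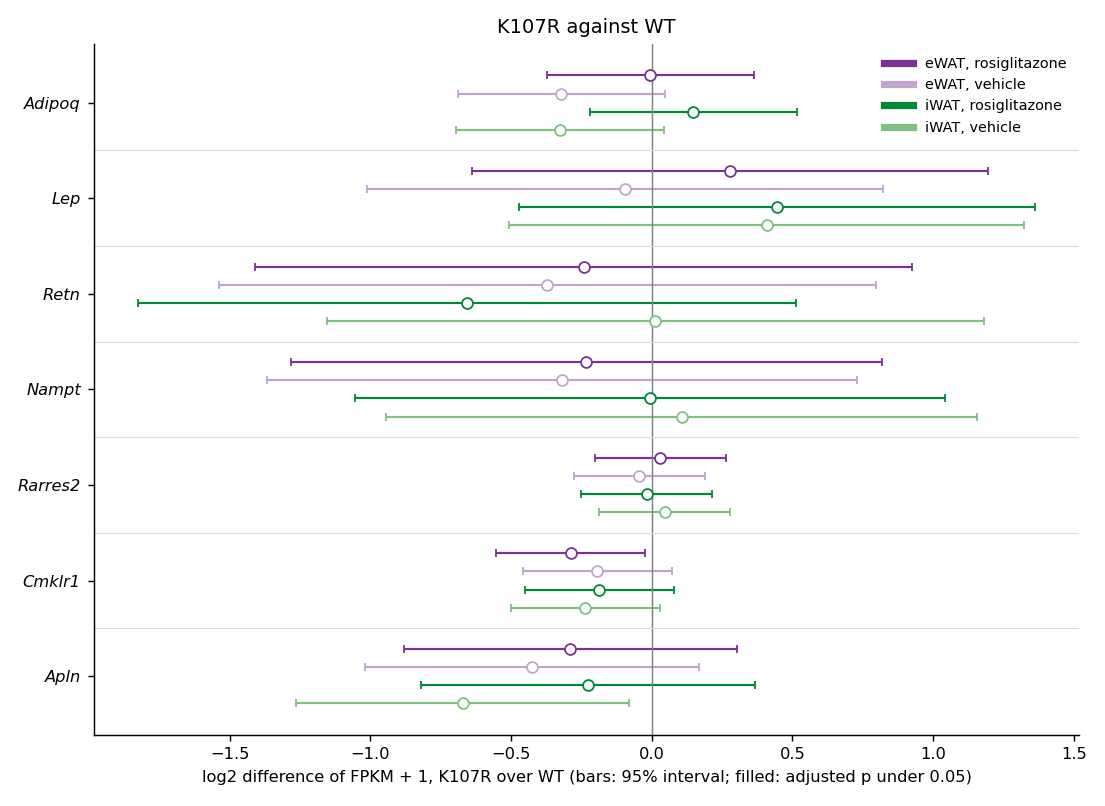
Log2 difference of FPKM + 1, K107R over WT (x axis), with 95% intervals for each member (rows) under rosiglitazone and vehicle in both depots. The intervals are those of the fit without the replicate block. All points are open, since none passed the adjusted p of 0.05, and the intervals are narrowest for Rarres2 and Cmklr1 and widest for Retn.

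Between the depots, 4 of the 7 members passed over the mean of the 4 groups, where 32.4% of all genes did. Retn differed most: its highest eWAT library, at 236.9 FPKM, lay below its lowest iWAT library, at 274.5 FPKM, and its log2 difference was -1.59 ± 0.26 (adjusted p = 0.000865). The eWAT means were 0.295 to 0.373 of the iWAT means in the 4 pairs of groups. Adipoq was also lower in eWAT (-0.54 ± 0.08, adjusted p = 0.000514), with eWAT libraries at 1068 to 2107 FPKM (median 1685) and iWAT libraries at 1442 to 3320 FPKM (median 2421). Rarres2 was lower in eWAT without overlap, as 2.59% of genes were (-0.34 ± 0.05, adjusted p = 0.000481). After rescaling its eWAT and iWAT libraries overlapped. Cmklr1 passed in the other direction (0.18 ± 0.06, adjusted p = 0.0387), but after rescaling its difference was 0.04 (adjusted p = 0.84), and without a single library the call was lost in 13 of 16 cases (adjusted p 0.0512 to 0.0984). With the block Lep (-0.41, adjusted p = 0.00551) and Apln (-0.27, adjusted p = 0.0289) passed as well, both lower in eWAT, and 55.8% of all genes did. Both also passed with rescaling (Lep -0.55, adjusted p = 0.000633, and Apln -0.37, adjusted p = 0.000861). Fat cell markers moved the same way as Adipoq and Retn: of 10 with no group at 0, 6 were lower in eWAT and 0 higher, while 8 of 8 macrophage markers were higher in eWAT (median log2 1.26). Their part in the depot differences was not tested.

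The depots also differed in the receptors. Of the 10 receptor and proximal signal genes 3 were higher in eWAT and 4 lower, where 32.4% of all genes tested passed in either direction (55.8% with the block). Ccrl2, which binds chemerin without signalling, was higher (log2 1.27 ± 0.19, adjusted p = 0.000419), as were Cap1, reported as a resistin receptor in humans (1.42 ± 0.43, adjusted p = 0.0287), and Socs3, an inhibitor of leptin signalling (0.49 ± 0.09, adjusted p = 0.00248). Cdh13 was lower (-0.96 ± 0.07, adjusted p = 3.89e-06), as were Gpr1, another chemerin receptor (-0.75 ± 0.18, adjusted p = 0.00831), the leptin receptor Lepr (-0.46 ± 0.12, adjusted p = 0.015) and Adipor2 (-0.45 ± 0.13, adjusted p = 0.0199). Of the adiponectin folding genes P4hb, Hspa5 and Pdia4 were higher in eWAT and Gstk1, which assists adiponectin assembly, was lower (-0.54 ± 0.07, adjusted p = 0.000139). After rescaling Hspa5 missed the threshold (log2 0.30, adjusted p = 0.282, with the block too 0.00979).

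Other secreted factors of fat were read from a list of 30, of which 26 are in the table. With rosiglitazone over both genotypes 1 rose and 6 fell in eWAT, where 5.18% of all genes tested passed. In iWAT 2 rose and 7 fell, where 5.36% of all genes did. The chemokine Ccl2 fell in both (log2 -1.14, adjusted p = 0.0372 in eWAT, and -1.61, adjusted p = 0.00612 in iWAT), and so did C1qtnf9, an adiponectin relative (-0.79 and -1.15, adjusted p = 0.00667 and 0.000842). The hormone Fgf21 rose in both (1.08 and 0.82, adjusted p = 9.89e-05 and 0.00119). Some genes of this list passed between the genotypes. Fgf21 was higher in K107R in all 4 comparisons, for example at 15.45 and 14.36 FPKM in K107R rosiglitazone iWAT against 3.16 and 3.54 FPKM in WT rosiglitazone iWAT (log2 1.87 ± 0.15, adjusted p = 5.26e-05). Rbp4, the retinol carrier, was lower in K107R under rosiglitazone in eWAT (-1.21, adjusted p = 0.003) and in iWAT (-0.87, adjusted p = 0.0061). The list was drawn up with earlier results of these data known, so its calls are no independent finding and no measure against the members.

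The genes most like each member were found by Pearson's r of log2(FPKM + 1) over the 16 libraries, after the mean of libraries with the same replicate number was taken away, among 11111 genes. They are given as a description, since all genes share the libraries and groups. Adipoq was most like Klb (r = 0.974), Apmap and Dock11, Lep most like Arhgap32 (0.929) and Nkd1, and Retn most like Mogat1 (0.969), Cd209b and Gabbr1. Nampt was most like Cnot7 (0.968), Ccdc71l and Ube2d2a, and Rarres2 most like Tlr5 (0.966), with Igfbp3 also among the closest. Cmklr1 was most like Col4a1, a collagen of basement membranes (0.962), Vasn and Mrc2, and Apln most like Nxpe4 (0.976), Arhgef17 and Prnd. Among the members themselves the highest r was that of Cmklr1 with Apln (0.884) and the lowest that of Adipoq with Cmklr1 (-0.666).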

How the data were processed

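RNA-seq libraries of eWAT and iWAT were made by the authors from 4 ug of RNA each with a kit that marks strand, read as single ends of 75 nt, per the labels' protocols. FPKM values are what the authors deposited; CASAVA 1.8.2, TopHat2 2.0.12, Cufflinks 2.2.1 and build mm10 are named in the submitters' processing notes. The annotation, strand setting and scaling between libraries are not given in the sources used here. FPKM carries no counts, so no depth, counting interval or floor could be given.

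The 7 members and 12 further gene lists were chosen with earlier results of these data known. The test took genes that reach 1 FPKM in 2 or more libraries, on the scale of log2(FPKM + 1), which shrinks changes of low genes. The model, in limma 3.58.1 (R 4.3.3), had a mean for each of 8 groups over all 16 libraries and a mean-variance trend. It was run on simulated data whose libraries varied independently. Those data held no deviation shared by a replicate number, so they cannot show how the fit behaves with one. P-values are two-sided and adjusted (Benjamini-Hochberg) over all genes in each of 14 contrasts, and "passed", "rose" and "fell" mean an adjusted p under 0.05. Over both genotypes means the average of the K107R and WT changes. All members are named, and of each list the genes that passed, up to 4 by smallest adjusted p, or the first by p where none did; others were chosen after their values were seen. Likeness was computed among genes that average at least 2 FPKM and have no library at 0. Some of the genes most alike are not reported here.

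Groups share replicate numbers 1 and 2 in the labels, whose meaning is not given. Libraries of the same number deviated together from their group means in 28 of 28 pairs of groups (r 0.121 to 0.791), so the number was taken as a pairing. The fit with it as a block is quoted where it changes a call. Also tried were no filter, a pseudocount of 0.1, rescaling by median ratios, fitting 1 depot alone, the block, leaving out single libraries, leaving out the K107R vehicle eWAT libraries, and leaving out genes above 50 FPKM that are listed at 0 in another group. The promoter windows are from RefSeq on GRCm38.p6, and gene positions from the GENCODE annotation on GRCm38, the assembly of mm10.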

Additional observations from a re-analysis of the deposited data

Results flagged for a closer look

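The Cmklr1 response to rosiglitazone differed between the depots, with eWAT minus iWAT at 1.005 on the log2 scale (SE 0.12, adjusted p = 0.000723 by limma over all genes). It was flagged because the test of the difference itself passed. After rescaling the difference passed only together with the block, as given above. The fall was larger in iWAT in both genotypes (log2 -0.48 in eWAT and -1.41 in iWAT of K107R, -0.38 and -1.46 in WT), so it was seen without the K107R vehicle eWAT libraries that carry epididymis transcripts. Fits without single libraries were run, but within a group of 2 libraries an outlying one cannot be told from its partner.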

How the results depend on the processing

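Counts of members past the test moved as follows. Shares of all genes under these alternatives are given above for the replicate block only, so the other counts have no background here. In K107R eWAT the count with rosiglitazone was 2 with no filter, 2 with the replicate block and 4 with rescaling and the block, and 0 without any 1 of the 4 libraries compared. In WT eWAT it was 1 with rescaling, 1 with the block and 2 with both. Over both genotypes in eWAT it was 1 with rescaling, 4 with rescaling and the block, 1 from the depot alone, and 0 to 2 with a library left out; the 0 came without K107R vehicle number 2. In iWAT it was 1 in K107R, 0 in WT and 1 over both genotypes from the depot alone. With rescaling the iWAT count was 2 in K107R, without Adipoq (adjusted p = 0.162), and over both genotypes 3, with Lep in place of Adipoq (0.129). With rescaling and the block it was 4 in K107R, 3 in WT and 4 over both genotypes, Lep among them each time. With a library left out the iWAT count was 1 to 3 in K107R and 1 to 2 in WT. The lower count of 1 came without K107R rosiglitazone number 1, WT rosiglitazone number 1, WT rosiglitazone number 2 or WT vehicle number 1. K107R against WT in iWAT gave 1 with rosiglitazone and 1 with vehicle under rescaling with the block (Lep and Apln). Between the depots 5 passed with rescaling. The depot difference of the response gave 2 with the block and 2 with rescaling and the block. The combination of rescaling and block was added after seeing the data.

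Of the 98 changes of members in the 14 comparisons, 15 changed sign with rescaling, all of them at most log2 0.137 in size without it and none past the test in any of 4 fits (with or without rescaling and block). Among them were K107R against WT in vehicle eWAT for Lep (-0.0957, rescaled 0.0819) and Rarres2 (-0.0442, rescaled 0.133), the K107R rosiglitazone change of Retn in eWAT (0.106, rescaled -0.116) and the depot difference of Nampt (0.131, rescaled -0.00454). The other alternatives were followed for changes of at least log2 0.3 or past the test with or without the block. Among those, signs turned only when a library was left out: for K107R against WT in vehicle eWAT, without K107R vehicle number 2, Retn gave 0.324 and Nampt 0.116 (without number 1, -1.07 and -0.756). In the iWAT comparisons, without K107R rosiglitazone number 2, the K107R rosiglitazone change of Retn was 0.185 (without number 1, -0.867). Without WT vehicle number 2 that of Retn in WT was -0.0136, and K107R against WT vehicle gave -0.0641 for Lep (without number 1, 0.669 and 0.882). None of these 5 had passed. The cause of these shifts was not tested. A fit that leaves 1 library in a group assumes that it varies like the others. In K107R eWAT the median log2 change over all genes was 0.172, and -0.00327 after rescaling. Depth is unknown, so what it limits cannot be given.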

Other observations

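The ratio of Adipoq to Lep within a library, in which any scaling of that library cancels, was 3.343 to 4.956 in the 4 rosiglitazone eWAT libraries (median 3.357) and 1.419 to 2.384 in the 4 vehicle ones (median 1.827). In iWAT it was 3.206 to 5.805 (median 4.174) with rosiglitazone and 1.359 to 3.338 (median 1.733) with vehicle. The exact two-sided permutation p was 0.0286 in eWAT, the smallest that 4 against 4 libraries allow, and 0.0571 in iWAT, or 0.0571 and 0.0816 adjusted over 10 such ratios, which fails the correction. These tests do not use the pairing by replicate number. Paired by genotype and number, the ratio was higher with rosiglitazone in 4 of 4 pairs of each depot (exact two-sided sign-flip permutation p = 0.125, the smallest that 4 pairs allow).

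Cmklr1 per 100 FPKM of the macrophage marker sum was 2.37 to 3.177 in rosiglitazone eWAT and 3.422 to 4.724 in vehicle eWAT. In iWAT it was 4.604 to 7.689 with rosiglitazone and 13 to 22.91 with vehicle (both depots exact permutation p = 0.0286, adjusted 0.0571). Apln per 100 FPKM of the endothelial marker sum was 0.2778 to 0.4231 in rosiglitazone iWAT and 0.9558 to 1.476 in vehicle iWAT (exact p = 0.0286, adjusted 0.0571), while the eWAT values of 0.5386 to 0.8266 with rosiglitazone and 0.8215 to 1.3 with vehicle overlapped (exact p = 0.0571, adjusted 0.0816). Cmklr1 per 100 FPKM of Rarres2 was 3.783 to 4.386 in rosiglitazone iWAT and 8.615 to 10.96 in vehicle iWAT (exact p = 0.0286, adjusted 0.0571), while in eWAT it was 7.071 to 10.31 with rosiglitazone and 8.948 to 11.17 with vehicle, which overlap (exact p = 0.143, adjusted 0.179). Adipoq per 100 FPKM of the fat cell marker sum was 20.7 to 32.05 with rosiglitazone and 18.67 to 31.47 with vehicle in eWAT (exact p = 0.657), and 19.85 to 24.9 and 18.97 to 30.83 in iWAT (exact p = 0.571). The genotypes lay apart in eWAT. K107R libraries had 20.7 and 21.4 with rosiglitazone and 18.9 and 18.7 with vehicle. WT libraries had 25.7 and 32.1 with rosiglitazone and 25.1 and 31.5 with vehicle. Each of these 4 ratios went 1 way in 4 of 4 pairs of each depot (exact sign-flip p = 0.125), except Adipoq over the fat cell marker sum in iWAT, which was higher with rosiglitazone in 2 of 4 pairs (exact sign-flip p = 0.5). The paired test was added after seeing the data. The unpaired tests pool the genotypes, so a spread between genotypes hides a shift with treatment. All these ratios are made of values already described above, so they are no separate support, and no cause was tested with them.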
